A study of Mus musculus with 40 samples.

Results

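Collagen chains are the protein strands from which the collagens of the extracellular matrix are wound. They were followed here as the genes whose platform symbol is Col, a number, the letter a and a number, with the brightest of a gene's probes standing for the gene. This rule found 37 collagen genes, represented by 59 probes, among 16593 genes with 1 symbol on the array. For 19 of these 37 genes the brightest probe passed the filter and was tested, as for 8687 genes in all, and for the other 18 it lay near or below the median of the array. Transcript levels were measured in skeletal muscle from the thigh of 40 C57BL/6J males, a strain the labels write as C57BL\6, 10 in each of 4 groups, killed at 9 weeks of age after a fast, with 1 Illumina MouseRef-8 v2.0 array per animal. The groups are written with the diet of the dam first and the diet of the son after weaning on day 21 second, so that LF_LF, LF_HF, HF_LF and HF_HF stand for each combination of a low fat (LF) and a high fat (HF) diet. All animals had the same genetic background and no group received another agent. The HF diet was also a low carbohydrate diet and its fat came mainly from coconut oil, and the HF dams had eaten it since before mating. The animals came from 12 cages, so that several animals of a group shared a dam or a litter.

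Each collagen molecule consists of several chains wound into a triple helix, and the chains of a molecule can be the products of 1 gene or of several. In skeletal muscle, fibroblasts of the connective tissue between the fibres make most of the fibrillar collagens I, III and V, which give the tissue its tensile strength. Type IV collagen forms the sheet of the basement membrane around each fibre and capillary, type VI forms beaded filaments that link this sheet to the matrix outside, and types XV and XVIII lie at the outer face of basement membranes. Chains are hydroxylated and glycosylated in the endoplasmic reticulum, folded with the help of chaperones, trimmed of their propeptides outside the cell and crosslinked by lysyl oxidases.

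Intensities were quantile-normalised fluorescence values, in which the median of an array lay at 75.7 or 75.8. The arrays of the series fell into an array set 1 of 17 and an array set 2 of 23, which the first principal component of the untested dim probes separated and which the labels do not name. Array set 1 held 2 LF_LF, 4 LF_HF, 6 HF_LF and 5 HF_HF animals, and 4 of the collagen chains (Col11a2, Col2a1, Col4a3 and Col4a4, all dim) differed between the sets. The muscle fibre markers Acta1 and Ckm had mean intensities of 26288 and 29346, which fits the labelled tissue, and the fibroblast markers Dcn and Pdgfra had 11063 and 449. The tendon markers Tnmd (74.7) and Thbs4 (65.3), the cartilage marker Acan (68.0) and the fat cell marker Plin1 (69.3) lay near or below the array median. Other markers of the tendon list lay above it, with Fmod at 361 (131.3 to 669.4), Scx at 128 and Comp at 92.2, and tendon also makes collagens of types I and III. The fat cell marker Adipoq ranged from 152.6 to 2877. The summed intensity of 8 macrophage markers in the LF_HF replicate 6 array was 7899.7 against a median of 1852.8 in its group, and the comparisons that hold this array are also given without it.

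The collagen classes were represented unevenly among the bright probes. Of the 11 genes of fibrillar chains, 7 were tested, of the 6 of the basement membrane network 4, of the 3 of beaded filaments 2, of the 6 of FACITs, which sit on the surface of fibrils, 3, and both multiplexins, the class of Col15a1 and Col18a1. None of the 4 transmembrane and none of the 2 short-chain network collagens was tested, and of the 3 remaining genes only Col7a1, the chain of anchoring fibrils. The chains with a mean intensity above 100 were Col1a1, Col1a2, Col3a1, Col5a1 and Col24a1, Col4a1 and Col4a2, Col6a1 and Col6a2, Col16a1, Col15a1, Col18a1 and Col7a1, which makes 13. The remaining 6 tested chains, Col2a1, Col11a2, Col4a3, Col4a4, Col9a1 and Col14a1, had mean intensities between 75.4 and 80.0 and stayed close to the array median in every group. Col2a1 and Col9a1 are chains of cartilage collagens, and Col4a3 and Col4a4 are best known from the basement membrane of the kidney glomerulus.

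The 18 untested chains had mean intensities from 52.6 (Col13a1, a transmembrane chain) to 75.2 (Col9a2). They were Col5a2, Col5a3, Col11a1, Col27a1, Col4a5, Col4a6, Col6a6, Col9a2, Col9a3, Col19a1, Col8a2, Col10a1, Col13a1, Col17a1, Col23a1, Col25a1, Col26a1 and Col28a1. A dimmer probe of Col25a1 passed the filter and its brightest did not, so that the gene stayed out. Col5a2, which joins Col5a1 in type V collagen and is usually made in the same cells, had a mean of 67.2 and lay above the array median in 3 of 40 arrays, so that its level could not be followed with this probe. A further chain of type VI collagen, Col6a3, was not among the genes listed on the array. When all probes were tested without the filter, 0 of the 37 chains passed in each of the 7 comparisons.

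The fibrillar chains Col1a1, Col1a2 and Col3a1 were the most variable members. The start regions of Col1a2 and Col3a1, which varied together across animals, are shown, and no promoter sequence was given for Col1a1. Sequences are the 250 bases before the transcript start from RefSeq in mouse build GRCm38.p6, on the plus strand, with capitals marking matches on either strand to the CCAAT box, to the core of the GC box, which reads GGGCGG, and to the TATA box as TATAAA. The Col1a2 region is chr6:4505368-4505617 and the Col3a1 region is chr1:45311288-45311537.
Col1a2: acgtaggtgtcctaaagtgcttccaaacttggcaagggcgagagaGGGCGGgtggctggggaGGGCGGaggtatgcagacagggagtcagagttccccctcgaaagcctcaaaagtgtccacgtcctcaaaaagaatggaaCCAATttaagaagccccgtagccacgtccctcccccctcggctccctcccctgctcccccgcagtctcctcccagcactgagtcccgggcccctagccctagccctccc
Col3a1: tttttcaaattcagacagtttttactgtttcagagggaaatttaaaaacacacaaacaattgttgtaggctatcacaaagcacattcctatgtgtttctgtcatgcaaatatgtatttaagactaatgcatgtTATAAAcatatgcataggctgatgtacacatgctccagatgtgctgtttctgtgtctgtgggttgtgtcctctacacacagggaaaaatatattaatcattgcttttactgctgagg
The Col1a2 region held 62.0% G and C, 1 CCAAT and a pair of GGGCGG matches. The Col3a1 region held 35.2% G and C and 1 TATAAA and neither of the others. CCAAT occurred in the same window of 33.85% of 32851 promoters, GGGCGG in 32.74% and TATAAA in 12.37%, and among the 30 collagen genes with a promoter sequence given, 12, 18 and 5 held them. A match is a description of the letters and not a binding site. Col4a1 and Col4a2 lie head to head on chromosome 8 with transcript starts 21 bases apart, Col6a1 and Col6a2 are neighbours on chromosome 10, and Col3a1 lies beside Col5a2 on chromosome 1.

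Col1a1 and Col1a2 encode the chains of type I collagen, the main fibrillar collagen. Col1a1 intensity ran from 465.5 through a median of 741 to 1325.7 in LF_LF, from 420.2 through 733 to 1243 in LF_HF, from 619.5 through 713 to 1424.7 in HF_LF and from 281 through 612 to 1268.4 in HF_HF. Col1a2 ran from 148.4 through 254 to 366 in LF_LF, from 182.7 through 245 to 462 in LF_HF, from 185.5 through 288 to 910.3 in HF_LF and from 101.8 through 196 to 434 in HF_HF. For both chains the 4 groups overlapped over most of their range, and the lowest animal of all 40 was an HF_HF animal.

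Col3a1 encodes the only chain of type III collagen, which forms thin fibrils together with type I. Its intensity ran from 165 through a median of 282 to 370.1 in LF_LF, from 192.7 through 301 to 578.2 in LF_HF, from 157.7 through 377 to 709.8 in HF_LF and from 115.1 through 197 to 445.8 in HF_HF. The groups overlapped, with HF_HF lowest by median and HF_LF highest. Col5a1, whose chain sets the diameter of type I fibrils, ran from 372 through 461 to 588.1 in LF_LF, from 403.6 through 468 to 1041.4 in LF_HF, from 353.2 through 479 to 602.2 in HF_LF and from 275.8 through 377 to 485 in HF_HF. The LF_HF maximum of Col5a1 was replicate 6, and the others of its group reached at most 577.4. Col24a1, a minor fibrillar chain, had group medians between 105 and 125.

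Among the basement membrane chains, Col4a1 ran from 1120.6 through 1334 to 1582.1 in LF_LF, from 1029.8 through 1476 to 2096.1 in LF_HF, from 1130.3 through 1400 to 1991.7 in HF_LF and from 780.9 through 1308 to 1596.2 in HF_HF. Its partner Col4a2 ran from 769.9 through 918 to 1056.6 in LF_LF, from 871.6 through 1086 to 1298.9 in LF_HF, from 779.3 through 974 to 1378.7 in HF_LF and from 620.9 through 897 to 1296.3 in HF_HF. The LF_HF animals lay higher than the LF_LF animals for Col4a2, with overlap between 871.6 and 1056.6. Of the multiplexins, Col15a1 ran from 193.4 through 215 to 232.3 in LF_LF, from 212.9 through 234 to 253.6 in LF_HF, from 184.1 through 213 to 277.6 in HF_LF and from 136 through 208 to 246.6 in HF_HF. Col18a1, which carries the endostatin fragment, had group medians between 236 and 265.

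Type VI collagen, whose mutations cause muscle dystrophies in humans, was represented by Col6a1 and Col6a2. Col6a1 ran from 989.9 through 1088 to 1335.4 in LF_LF, from 890.2 through 1117 to 1640.6 in LF_HF, from 905.2 through 1208 to 1582.1 in HF_LF and from 687 through 953 to 1177.1 in HF_HF. Col6a2 ran from 159.2 through 193 to 229.6 in LF_LF, from 157.3 through 225 to 296.5 in LF_HF, from 151.5 through 217 to 245.8 in HF_LF and from 140.4 through 187 to 208.4 in HF_HF. The HF_HF group had the lowest maximum for both chains. The FACIT Col16a1 had group medians between 195 and 216 and Col7a1 between 190 and 204.

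**Figure D1:**
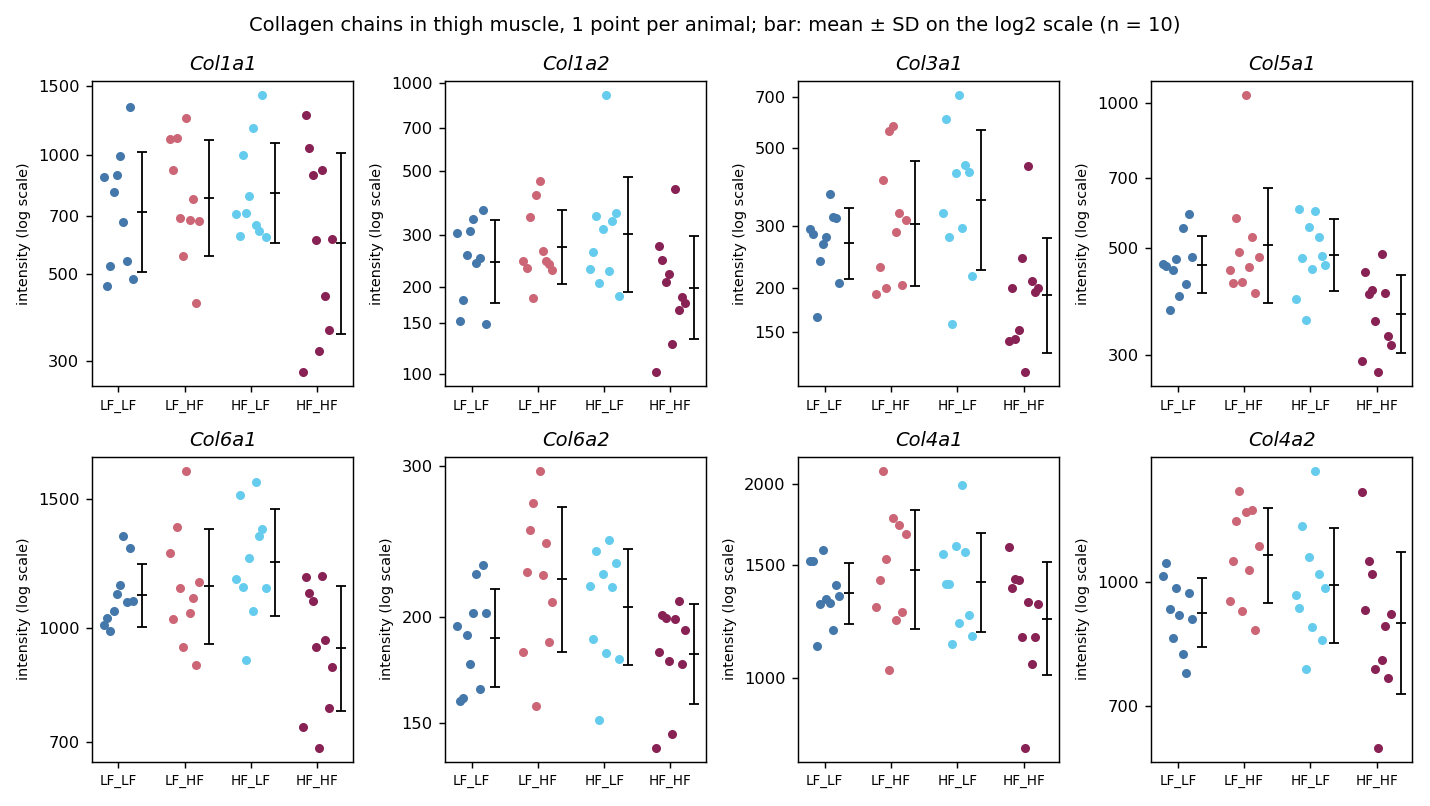
Intensity of 8 collagen chains in each of the 40 animals (points, log axis), with the mean and SD of each group of 10 taken on the log2 scale. The groups overlap for every chain, and HF_HF has the lowest group median for all 8.

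The effect of HF feeding after weaning was asked separately in sons of LF and of HF dams. In sons of LF dams (LF_HF against LF_LF), 0 of the 19 tested chains passed at an adjusted p of 0.05 in limma's test, where 521 of 12467 probes passed (4.18%), and 3 chains had an unadjusted p under 0.05 against 17.4% of all probes. The median log2 change of the 19 chains was 0.09 against -0.01 over all tested genes, with 14 chains above 0 and 5 below. With 1 array or cage left out it ran from 0.04 (without cage 9) to 0.11 (without cage 11). It was also 0.04 without cage 8, cage 14, LF_LF replicate 2 or LF_HF replicate 6, and 0.05 without LF_LF replicate 10. Col4a2 differed most, at 0.24 ± 0.07 on the log2 scale (SE, n = 10 per group, 95% interval 0.09 to 0.38, limma adjusted p = 0.0700), and 9 of 10 LF_HF animals lay above the LF_LF mean. Col15a1 was higher by 0.12 ± 0.04 (limma adjusted p = 0.128), with 10 of 10 animals above that mean. Col6a2 was higher by 0.23 ± 0.10 (limma adjusted p = 0.231), with 7 of 10 animals above. Markers of other cell types differed in the same comparison. Emcn, an endothelial marker, was higher by 0.32 ± 0.05 (limma adjusted p = 0.000402) and Acta2, a smooth muscle marker, by 0.44 ± 0.10 (limma adjusted p = 0.0130), and they were 1 of 5 endothelial and 1 of 3 smooth muscle markers that passed. The 6 slow fibre markers had a median of 1.08 (6 above 0) and the 5 tested tendon markers 0.17 (5 above 0), while the 3 tested fat cell markers had -0.91 (0 above 0), and 0 of these passed. The 7 tested fibroblast markers had a median of -0.03 (3 above 0) and the 8 tested macrophage markers 0.09 (7 above 0), also with 0 passing. The part of these cell types in the collagen values was not tested.

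The fibrillar chains in the same comparison had smaller differences relative to their spread, at 0.12 ± 0.20 for Col1a1, 0.17 ± 0.18 for Col1a2 and 0.19 ± 0.19 for Col3a1. The array with the high macrophage sum, LF_HF replicate 6, was the highest of its group for 9 of the 19 chains, among them Col1a1, Col1a2, Col3a1, Col5a1, Col6a1 and Col6a2, and was the lowest for 3. Without it the log2 changes were 0.04 for Col1a1, 0.09 for Col1a2, 0.09 for Col3a1, 0.02 for Col5a1, -0.02 for Col6a1, 0.22 for Col4a2, 0.18 for Col6a2 and 0.12 for Col15a1, and the median of the 19 chains was 0.04. The part of the macrophage signal in these values was not tested. Within array set 2 the median was 0.10, and within array set 1, which held 2 LF_LF and 4 LF_HF animals, it was -0.01. Col1a1, Col1a2 and Col3a1 were at 0.23, 0.44 and 0.38 in set 2 and at -0.30, -0.49 and -0.16 in set 1. Fitted within the cages that hold both diets, these chains were at -0.22, -0.12 and 0.12.

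In sons of HF dams (HF_HF against HF_LF), the bright chains all lay on the same side. Of the 19 tested chains 18 were below 0, including all 13 with a mean intensity above 100, and the median log2 change was -0.16 against -0.001 over all tested genes. With 1 array or cage left out this median ran from -0.19 (without cage 12) to -0.08 (without cage 20), and without HF_LF replicate 7 it was -0.10. None of the 19 passed, at a background of 0.361% of all probes (45 of 12467), and 5 had an unadjusted p under 0.05 against 11.4% of all probes. By class the medians were -0.40 for the 7 fibrillar chains (7 below 0), -0.29 for the 2 type VI chains (2 below), -0.11 for the 4 basement membrane chains (4 below), -0.10 for the 3 FACITs (2 below) and -0.08 for the 2 multiplexins (2 below).

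Col3a1 differed most, with a mean intensity of 204 ± 93.4 (SD, n = 10) in HF_HF and 389 ± 172 (SD, n = 10) in HF_LF. On the log2 scale this was -0.90 ± 0.24 (SE, 95% interval -1.37 to -0.43), that is 1.87-fold lower in HF_HF, with a limma adjusted p of 0.101, and 9 of 10 HF_HF animals lay below the HF_LF mean. Col5a1 was lower by 0.40 (log2 change -0.40 ± 0.11, limma adjusted p = 0.101), with 9 of 10 animals below. Col6a1 had a log2 change of -0.39 ± 0.11 (limma adjusted p = 0.128), with 10 of 10 HF_HF animals below the HF_LF mean. Col1a2 and Col1a1 had log2 changes of -0.61 ± 0.25 and -0.43 ± 0.25 (limma adjusted p = 0.340 and 0.543). Without the HF_LF replicate 6, whose Col1a2 intensity of 910.3 stood apart, the Col1a2 change was -0.43.

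A second, dimmer Col3a1 probe (mean intensity 114) gave -0.25 ± 0.09 (limma adjusted p = 0.262), the same direction at a smaller size, and the mean of both probes -0.58. A second Col6a1 probe gave -0.36 ± 0.10 and another, near the array median at 79.0, -0.04 ± 0.05. The fibroblast marker list had a median of -0.11 in this comparison, with 6 of its 7 tested genes below 0 and 0 passing, and its summed intensity ran from 11240 through 14091 to 17684 in HF_LF and from 11885 through 13049 to 15356 in HF_HF. Fewer fibroblasts and less collagen RNA per fibroblast cannot be told apart in whole muscle. The 3 tested fat cell markers had a median of -0.61 (3 below 0, 0 passing), among them Adipoq at -0.66 ± 0.36 and Cidec at -0.61 ± 0.30. The smooth muscle marker Acta2 was at 0.35 ± 0.09 (limma adjusted p = 0.0822), the endothelial marker Emcn at 0.21 ± 0.07 (limma adjusted p = 0.217) and the median of 6 slow fibre markers at 0.33. The part of these cell types in the collagen values was not tested.

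Within the array sets, the Col3a1 change in HF_HF against HF_LF was -0.89 in set 1 (6 HF_LF and 5 HF_HF animals, limma adjusted p = 0.054) and -0.90 in set 2 (4 and 5 animals, limma adjusted p = 0.535). The other chains were less even, with Col5a1 at -0.57 and -0.21 and Col6a1 at -0.60 and -0.14 in sets 1 and 2. Several bright chains lay below 0 in set 1 and above 0 in set 2, among them Col1a1 (-0.92 and 0.10) and Col6a2 (-0.37 and 0.08). The median of the 19 chains was -0.25 in set 1 (18 below 0) and -0.01 in set 2 (11 below 0), and whether the sets differ was not tested.

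**Figure D2:**
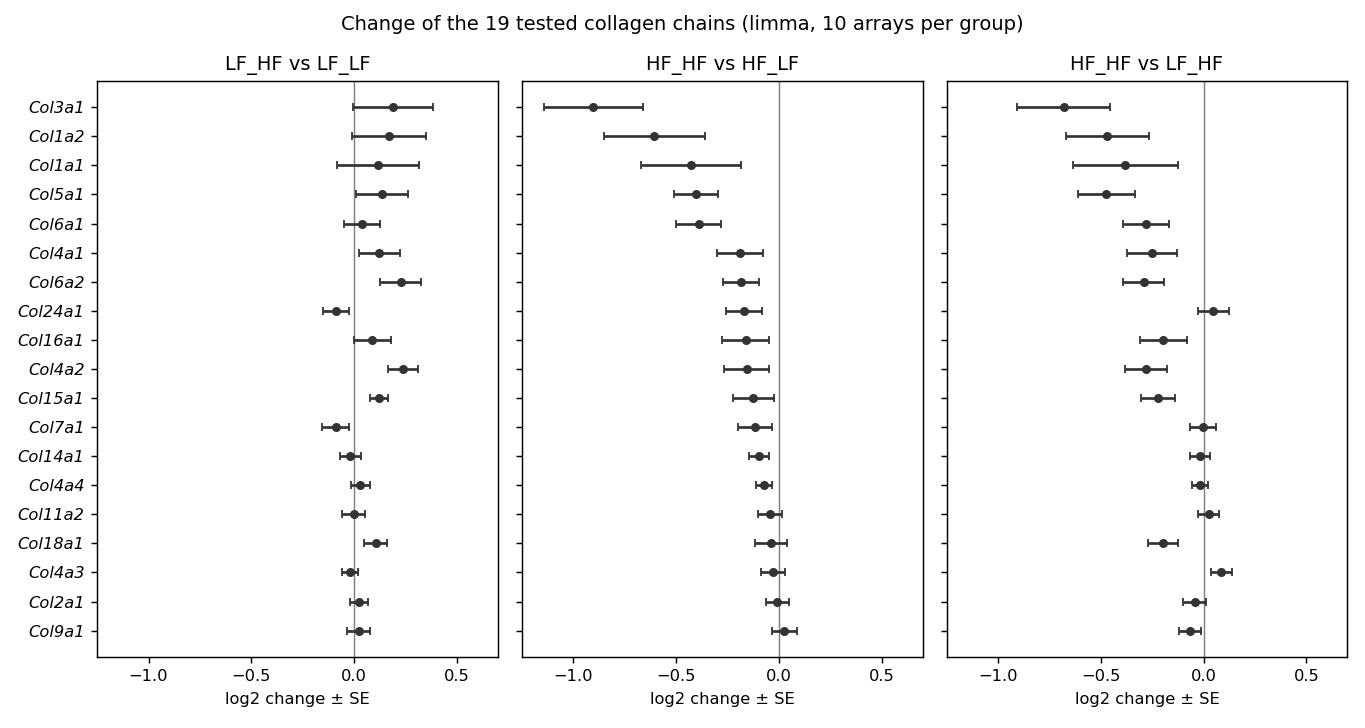
Log2 change ± SE of the 19 tested collagen chains in LF_HF against LF_LF, HF_HF against HF_LF and HF_HF against LF_HF (10 animals per group, limma). The bright chains lie below 0 in HF_HF against HF_LF, Col3a1 lowest at -0.90, and 0 chains passed in any of the comparisons shown.

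In 3 cages of HF dams, sons that came from the same cage were divided between both diets at weaning. The Col3a1 difference was seen within each of these cages. In cage 10 the HF_LF animals had 327.9 and 607.9 and the HF_HF animal 141.4, in cage 20 the HF_LF animal had 446.9 and the HF_HF animals from 115.1 to 445.8, and in cage 23 the HF_LF animals had 296.8 to 709.8 and the HF_HF animals 142.6 to 200.2. The HF_HF mean was thus below the HF_LF mean on the log2 scale by -1.66, -0.94 and -1.46. Col1a2, Col5a1, Col6a1 and Col6a2 also had a lower HF_HF mean in 3 of 3 cages. Col1a1 had one in 2 of 3, with a difference of 0.31 in the other direction in cage 23, where HF_LF animals had 666.9 to 1175.1 and HF_HF animals 893.4 to 1268.4. Fitted within these cages, the Col3a1 change was -1.37 (13 arrays, limma adjusted p = 0.0815), and without cage 23 the pairwise value was -0.66 (limma adjusted p = 0.682). In the 2 cages of LF dams with both diets, the Col3a1 differences were 0.13 in cage 4 and 0.10 in cage 11.

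**Figure D3:**
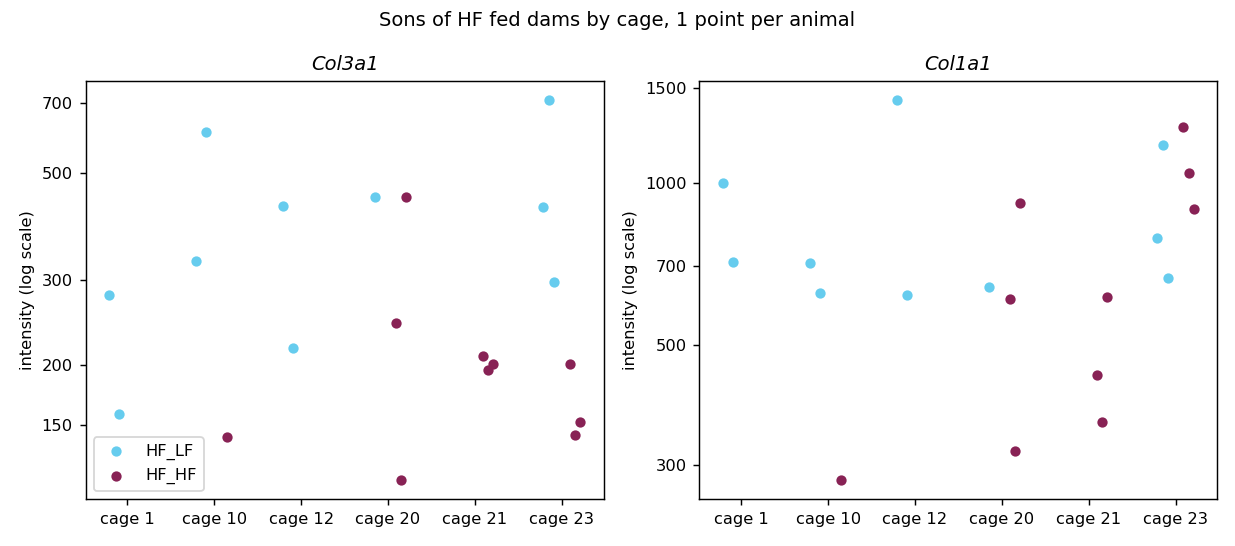
Intensity of Col3a1 and Col1a1 (log axis) in each son of an HF dam, by cage and post-weaning diet. In cages 10, 20 and 23 the Col3a1 values of HF_HF sons lie below those of HF_LF sons, whereas for Col1a1 in cage 23 HF_HF sons reach 1268.4.

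The effect of the maternal diet was asked in sons on the same post-weaning diet. No cage held sons of both maternal diets, so that this effect lay between cages and animals of a cage are not independent for it. In sons on LF (HF_LF against LF_LF), 0 of 19 chains passed at a background of 0.016% (2 probes), 0 had an unadjusted p under 0.05 against 8.21% of all probes, and the median log2 change was 0.07 with 16 chains above 0. Col4a3 had the smallest p at 0.10 ± 0.05 (limma adjusted p = 0.604), followed by Col3a1 at 0.41 ± 0.21 (limma adjusted p = 0.610) and Col4a4 at 0.09 ± 0.05 (limma adjusted p = 0.640). Col4a3 and Col4a4 are dim and differed between the array sets. The dimmer Col3a1 probe gave 0.01 ± 0.09 in this comparison.

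In sons on HF (HF_HF against LF_HF), 0 of 19 passed and 0 of all 12467 probes passed (0%), while 9 chains had an unadjusted p under 0.05 against 7.24% of all probes. The median log2 change was -0.20 with 16 chains below 0, of which 12 were among the 13 bright chains. Col5a1 differed by -0.47 ± 0.14 (limma adjusted p = 0.411), with 10 of 10 HF_HF animals below the LF_HF mean. Col3a1 differed by -0.68 ± 0.23 (limma adjusted p = 0.459), with 9 of 10 below, and its dimmer probe by -0.33 ± 0.11. Col6a2 differed by -0.29 ± 0.10 (limma adjusted p = 0.464), with 10 of 10 below. Without LF_HF replicate 6 Col5a1, Col3a1 and Col6a2 were at -0.36, -0.58 and -0.24, and the median of the chains was -0.16. With 1 value per cage and group (8 values) the 3 chains were at -0.52, -0.70 and -0.36 (limma adjusted p = 0.939 for each). The median of the chains was then -0.20. This comparison shares the HF_HF animals with HF_HF against HF_LF, so that both hold the low values of the same 10 animals. Within array set 2 the median was -0.08 and within array set 1 -0.27. Of the marker lists, slow fibre had a median of -0.67 (6 of 6 below 0), tendon -0.13 (5 of 5) and macrophages -0.10 (7 of 8). Fibroblasts had -0.06 (4 of 7 below 0), muscle fibre 0.02 (1 of 5) and fat cells 0.17 (0 of 3), and 0 of these genes passed. The part of these cell types in the collagen values was not tested.

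Over all 40 animals, the diets were also averaged over each other. For the maternal diet, 0 chains passed at a background of 0.61% (76 probes), 3 had an unadjusted p under 0.05 against 9.97%, and the median log2 change was -0.07 with 13 chains below 0. This median ran from -0.13 without cage 23 to -0.02 without cage 10, was -0.04 without cage 21, and was -0.06 without 3 arrays high in immune transcripts, LF_LF replicates 2 and 5 and LF_HF replicate 6, here called the immune-high arrays. The chains with the smallest p were Col4a3 at 0.09 ± 0.03 (limma adjusted p = 0.309), Col18a1 at -0.12 ± 0.05 (0.333) and Col5a1 at -0.20 ± 0.09 (0.401). For the post-weaning diet, 0 passed at a background of 7.88% (982 probes), 3 had an unadjusted p under 0.05 against 21.1%, and the median was -0.03 with 14 below 0. The smallest p values belonged to Col6a1 at -0.17 ± 0.07 (limma adjusted p = 0.143), Col24a1 at -0.13 ± 0.06 (0.164) and Col3a1 at -0.36 ± 0.16 (0.191). Without the immune-high arrays these were -0.21, -0.14 and -0.40 (limma adjusted p = 0.0747, 0.146 and 0.158), and the median of the chains was -0.03. It ran from -0.06 without cage 23 to -0.02 without cage 9, and was -0.05 without cage 12. The dimmer Col3a1 probe gave -0.08 ± 0.07 for the post-weaning diet.

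The interaction of both diets, which is the change with HF feeding in sons of HF dams less that in sons of LF dams, passed for 0 of 19 chains and for 0 of all 12467 probes (0%). Its median over the chains was -0.24 against 0.01 over all tested genes, with 18 of 19 below 0, and 7 chains had an unadjusted p under 0.05 against 5.19% of all probes. Col3a1 had an interaction of -1.09 ± 0.32 by its brightest probe, the lowest value among the 8687 tested genes. By p this probe ranked 20 among the 12467 probes, and the dimmer Col3a1 probe gave -0.34 ± 0.15. Col5a1 had an interaction of -0.54 ± 0.17 and Col6a2 of -0.41 ± 0.14. Each of these had a limma adjusted p of 0.908. The other fibrillar chains Col1a2 and Col1a1 were at -0.78 ± 0.32 and -0.54 ± 0.33. Without the 3 immune-high arrays the median was -0.14 (19 of 19 below 0), with Col3a1 at -1.0, Col5a1 at -0.43 and Col6a2 at -0.32 (limma adjusted p = 0.819, 0.819 and 0.833). With 1 cage left out it ran from -0.32 without cage 23 to -0.17 without cage 21. Several marker lists also lay to 1 side in this interaction, with 0 of their genes passing. Medians were -0.75 for slow fibre (6 of 6 below 0), -0.18 for macrophages (8 of 8), -0.13 for fibroblasts (6 of 7) and -0.10 for tendon (5 of 5). They were 0.31 for fat cells (0 of 3 below 0) and 0.06 for muscle fibre (1 of 5). The part of these cell types in the collagen values was not tested. All comparisons reuse the same 4 groups of animals. Many bright chains also varied together across animals. Counts of chains on 1 side of 0 or with a small p are therefore not independent results in any comparison.

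The chains differed widely in how much they varied among animals of a group. The within-group SD on the log2 scale was 0.56 for Col1a1, 0.55 for Col3a1 and 0.54 for Col1a2, which ranked 57, 62 and 63 from the top of 8687 genes, against 0.13 for the median gene and 0.18 for the median chain. Cage accounted for 42.1% of the within-group variance of Col3a1 and 48.2% of that of Col1a1, against 36.9% for the median gene and 36.1% that the number of cages alone gives.

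Whether chains that share a molecule or fibril vary together was examined on the deviations from group means over 40 animals, in 10 pairs of chains. Permutations were drawn within groups, were two-sided, treated animals of a cage as independent and could give no p below 1e-05. Col4a1 and Col4a2 had r = 0.80 and rho = 0.80 (permutation adjusted p = 2.5e-05), and r = 0.78 without the 2 animals farthest from the median. Col1a1 and Col1a2 had r = 0.70 and rho = 0.72 (permutation adjusted p = 2.5e-05, 0.66 without the 2 farthest), and Col6a1 and Col6a2 r = 0.69 and rho = 0.65 (2.5e-05, 0.61 without the 2 farthest). Each of these partners of 1 molecule also correlated by r within each array set, at 0.81 and 0.82, 0.66 and 0.68, and 0.64 and 0.81 in sets 1 and 2. By rho within set 1 only Col4a1 and Col4a2 passed, at 0.73 (permutation adjusted p = 0.0345). There Col1a1 and Col1a2 had rho = 0.51 (permutation adjusted p = 0.148) and Col6a1 and Col6a2 0.62 (0.0607).

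By its brightest probe, the type III transcript Col3a1 had a higher r with Col1a2 than with Col1a1. Col3a1 and Col1a2 had r = 0.72 and rho = 0.66 (permutation adjusted p = 2.5e-05, 0.62 without the 2 farthest, 0.71 and 0.77 within the sets). Their rho within set 1 was 0.62 (permutation adjusted p = 0.0717). Col3a1 and Col1a1 had r = 0.31 and rho = 0.30 (permutation adjusted p = 0.0992, 0.29 without the 2 farthest, 0.35 and 0.35 within the sets), and the difference between these 2 correlations was not tested. Col1a1 and Col6a1 had r = 0.62 and rho = 0.57 (permutation adjusted p = 0.00016, 0.56 without the 2 farthest), but 0.26 within set 1 against 0.69 within set 2. The other pairs across classes did not pass by r, with Col1a1 and Col4a1 at r = 0.30 and rho = 0.34 (permutation adjusted p = 0.107), Col4a1 and Col15a1 at r = 0.28 and rho = 0.42 (0.132 for r and 0.0164 for rho), Col1a1 and Col14a1 at r = 0.12 and rho = 0.14 (0.492) and Col3a1 and Col15a1 at r = 0.09 and rho = 0.18 (0.607). Within set 1 the first of these was -0.55 and within set 2 it was 0.63, and the second was -0.32 and 0.68, so that neither held within both sets.

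**Figure D4:**
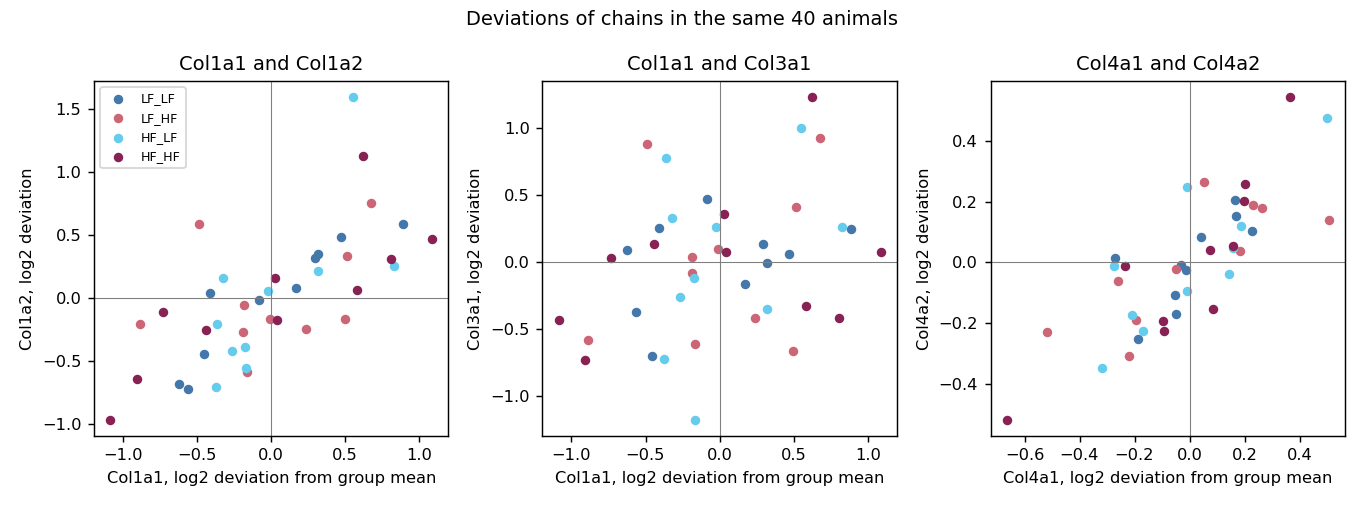
Deviation of log2 intensity from the group mean for Col1a1 against Col1a2, Col1a1 against Col3a1 and Col4a1 against Col4a2, with 1 point for each of 40 animals. The points of Col4a1 and Col4a2 lie closest to a line (r = 0.80), and those of Col1a1 and Col3a1 scatter most (r = 0.31).

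As a description over all 78 pairs of the 13 bright chains, 70 correlations were above 0 and 22 above 0.5, with a median of 0.32. The highest was Col5a1 with Col6a1 (0.86), a fibrillar with a beaded filament chain, followed by Col4a1 with Col4a2 and by Col16a1 with Col1a2 (0.79) and with Col1a1 (0.78). Col3a1 with Col7a1 was at -0.34. The 15 pairs of the 6 dim chains had a median of -0.11. All points share the 40 arrays and their normalisation.

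**Figure D5:**
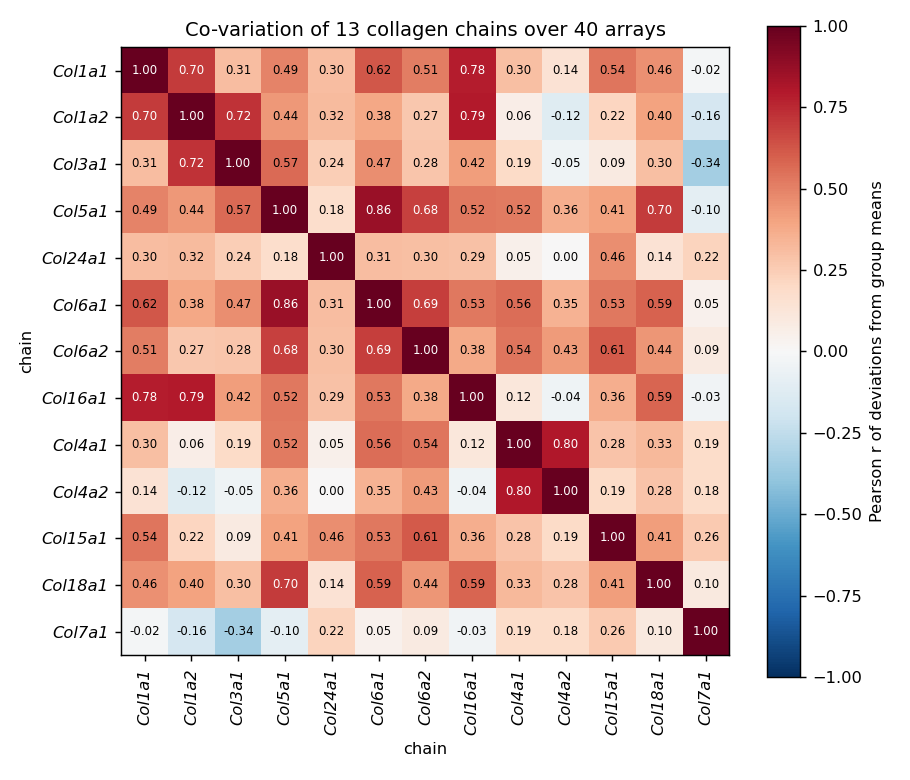
Pearson correlation of deviations from group means between the 13 chains with a mean intensity above 100, over 40 animals. Col5a1 with Col6a1 (0.86) and Col4a1 with Col4a2 (0.80) are the highest, and 70 of the 78 pairs are above 0.

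The genes whose deviations were most like the mean of Col1a1, Col1a2 and Col3a1 over the 40 arrays were Fam114a1 (r = 0.76), Itgbl1 (0.73), Lpar1 (0.72), Kera (0.71), Wipf1 (0.70), Magee1 (0.69), S100a10 (0.68) and Olfml3 (0.67). These genes were chosen on the 3 chains and are no separate evidence on them. Olfml3 and Itgbl1 had r = 0.84 and 0.77 with Col1a1 and 0.25 and 0.33 with Col3a1, whereas S100a10 and Wipf1 had 0.26 and 0.32 with Col1a1 and 0.76 and 0.77 with Col3a1. Kera had 0.54 with Col1a1 and 0.47 with Col3a1, and no difference was tested. Kera encodes keratocan, a small proteoglycan that binds collagen fibrils, and Lpar1 a receptor for lysophosphatidic acid.

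Col1a1, Col1a2 and Col3a1 were also set against weight at 3 weeks, a later weight, the gain between them, body length and blood glucose, which made 15 relations on deviations from group means. None passed, with permutation adjusted p values from 0.494 to 0.987, and the largest r was 0.30 between glucose and Col1a1.

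The genes that process collagen chains were listed by step. Of the genes of folding and modification, 14 of 16 listed were tested. In LF_HF against LF_LF 2 of them passed, where 4.18% of all probes did, and both were higher, P4ha2, a subunit of the prolyl hydroxylase that stabilises the helix, by 0.21 ± 0.05 on the log2 scale (limma adjusted p = 0.0214) and Plod1, a lysyl hydroxylase, by 0.14 ± 0.04 (limma adjusted p = 0.0479). Without LF_HF replicate 6 the limma adjusted p was 0.0350 for P4ha2 and 0.0789 for Plod1, and with LF_LF replicates 2 and 5 left out as well, which together with it make the 3 immune-high arrays, known from an earlier look at these data, it was 0.0643 and 0.117, so that 1 and then 0 of the 14 passed. Within the cages that hold both diets 0 passed, with P4ha2 at 0.17 and Plod1 at 0.10. The median of the list was 0.08, and the collagen chaperone Serpinh1 was at 0.15 ± 0.06 (limma adjusted p = 0.140). In HF_HF against HF_LF 0 of the 14 passed and the median was 0.01, beside -0.16 for the chains. Averaged over maternal diets, HF feeding gave 2 calls in this list, where 7.88% of all probes passed, P4ha2 at 0.16 ± 0.04 (limma adjusted p = 0.00378) and the prolyl 3-hydroxylase P3h2 at 0.14 ± 0.03 (limma adjusted p = 0.00647). Both also passed without the 3 immune-high arrays (limma adjusted p = 0.0130 and 0.0219), and within cages they were at 0.16 and 0.16 (limma adjusted p = 0.0954 and 0.0697).

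With all arrays, no gene of the other steps passed in either pairwise comparison of post-weaning diets. In HF_HF against HF_LF, the 6 tested of 12 genes of propeptide removal and crosslinking had a median of -0.11 (5 below 0), the 8 tested of 12 genes of breakdown and its inhibitors -0.08 (6 below 0), the 5 tested of 7 collagen receptors 0.04 (2 below 0) and the 6 tested of 7 genes of TGF-beta signals 0.02 (2 below 0). In LF_HF against LF_LF these medians were 0.11, -0.01, -0.01 and 0.02. Timp1, an inhibitor of collagenases, was at 0.54 ± 0.24 in that comparison (limma adjusted p = 0.248) and, without LF_HF replicate 6, at 0.28 ± 0.07 (limma adjusted p = 0.0297), and without the 3 immune-high arrays at 0.25 ± 0.07 (limma adjusted p = 0.0621). Timp4, another such inhibitor, was at 0.25 ± 0.09 (limma adjusted p = 0.143) and, without those 3 arrays, at 0.33 ± 0.09 (limma adjusted p = 0.0396). Lox, the lysyl oxidase that crosslinks fibrils, was at 0.20 ± 0.18 (limma adjusted p = 0.615).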

How the data were processed

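The authors hybridised 1 sample of thigh muscle RNA per animal to an array, read it with BeadStudio (version not given in the sources used here) and deposited quantile-normalised intensity values on a linear scale, with no background subtracted to 0, so that folds of dim probes are compressed. Array images and depth are not part of these values, and the number of arrays limits the precision. The table had 0 further columns of sample values. Groups came from the diet labels.

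From the deposited intensities, log2 values were taken with no offset. A probe was tested if it lay above its array's median in at least 20 of 40 arrays (12467 of 25697 probes). Each pair of groups was fitted on its 20 arrays, and the averaged diets and their interaction on all 40, with limma 3.58.1 in R 4.3.3 (lmFit, eBayes with trend), two-sided, with Benjamini-Hochberg adjustment over all tested probes and a call at an adjusted p under 0.05. The model was tested on simulated data. Correlations used 100000 permutations within groups and scipy 1.17.1. Cages were not modelled in the main tests, so that animals of a cage count as independent. Alternatives concerned the filter, offset, background, variance trend, array weights, cages, array sets, normalisation, probes of a gene and left-out arrays or cages; fits within array sets, pairwise fits without a cage and refits of the machinery lists were added after seeing the data.

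Symbols came from the platform annotation with gene identifiers checked against RefSeq of GRCm38.p6. The members, gene lists and tests were chosen with earlier results of these data known. Test values are given for the 3 chains with the smallest p in each comparison, and group ranges for fixed chains of types I, III, IV, V, VI and XV. Values of further chains were added after their results were seen. The genes named as most alike were the 8 with the highest correlation.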

Additional observations from a re-analysis of the deposited data

Results flagged for a closer look

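In 36 combinations of a group and a chain, a single animal stood apart from the other 9 of its group in 2, where chance alone gives about 1 in 20. Col1a2 reached 910.3 in HF_LF replicate 6 against 359.3 in the next animal, a gap of 0.584 of the range of the group. Col5a1 reached 1041.4 in LF_HF replicate 6 against 577.4 in the next animal, a gap of 0.622 of the range. The latter array was also the highest of its group for 9 of 19 chains and for the macrophage markers, and the part of these cells in its collagen values was not tested.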

How the results depend on the processing

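Most of the values followed kept their direction and their side of the threshold under the alternatives. Log2 changes were followed in this way only for the chains with the smallest p in each comparison. Some other chains changed sign, as given above. These include Col1a1 and Col6a2 in HF_HF against HF_LF within array set 2. In LF_HF against LF_LF they include Col1a1, Col1a2 and Col3a1 within array set 1. The count of chains called in LF_HF against LF_LF was 1 with array weights (Col4a2, limma adjusted p = 0.0494), and 0 to 1 when 1 array or cage was left out. It was 1 without LF_HF replicate 1, 5 or 9 (Col4a2, limma adjusted p = 0.0487, 0.0379 and 0.0340). In HF_HF against HF_LF it was 1 with all 40 arrays in 1 fit (Col3a1, limma adjusted p = 0.0487), and 0 to 1 with 1 array or cage left out. It was 1 without HF_LF replicate 4, HF_HF replicate 7 or cage 1 (Col3a1, limma adjusted p = 0.0439, 0.0329 and 0.0394), while without cage 23 the Col3a1 change was -0.66 (limma adjusted p = 0.682). The cause was not tested.

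The median of the chains in HF_HF against HF_LF was -0.0146 within array set 2. In HF_HF against LF_HF it was -0.0761 within array set 2, and -0.31 to -0.12 with 1 array or cage left out, -0.31 without cage 23. Correlations that changed sign within array set 1 were Col1a1 with Col4a1 (-0.55), Col4a1 with Col15a1 (-0.32), Col1a1 with Col14a1 (-0.27), gain with Col1a1 (-0.12), Col1a2 (-0.17) and Col3a1 (-0.48), later weight with Col1a2 (-0.15) and Col3a1 (-0.32), and weight at 3 weeks with Col1a2 (-0.0032). Length and glucose with Col3a1 were at -0.074 and -0.11 there. Within array set 2, Col3a1 with Col15a1 was -0.025 and later weight with Col1a1 0.094, and without the 2 farthest animals the latter was 0.021. The cause was not tested.

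Calls over all probes also moved under the alternatives. Against 521 in LF_HF against LF_LF there were 108 within cages that hold both diets, 149 with 1 value per cage and group and 319 without the filter. Against 45 in HF_HF against HF_LF there were 0 with 1 value per cage and group, 19 within cages, 29 without the filter, 69 with the array set as a block, 70 with array weights and 85 with all 40 arrays in 1 fit. Against 2 in HF_LF against LF_LF there were 0 to 9, against 0 in HF_HF against LF_HF up to 5, against 76 for the averaged maternal diet 39 to 78, and against 982 for the averaged post-weaning diet 350 to 1157. No paired analysis was possible because replicate numbers only name animals, other than the fits within cages that hold both diets, given above.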
